A study of Mus musculus with 31 samples.

Results

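The Dusp genes encode dual-specificity phosphatases, and every probe set that the platform's probe annotation pairs with a single symbol made of Dusp and a number was taken as a member. The rule found 13 of 12422 probe sets, for 9 of the 8251 genes that have a probe set of 1 symbol: Dusp1, Dusp2, Dusp6, Dusp8, Dusp9, Dusp11, Dusp12, Dusp16 and Dusp19. Their transcripts were read in D10.G4.1, a cloned line of mouse Th2 cells, on 31 one-colour arrays of total RNA. Cells had received neuromedin U (NmU), a neuropeptide, or phosphate-buffered saline (PBS) as the vehicle, and were taken at 0.8, 3, 6 and 12 h. Each treatment and time had 4 arrays, except NmU at 3 h with 3, and all cells came from the same clone. No dose of NmU is given in the sources used here, and the labels do not say whether replicates were separate cultures, so p-values measure only how far these samples spread, and that spread may be technical.

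The mitogen-activated protein (MAP) kinases ERK, JNK and p38 are switched on when a threonine and a tyrosine of their activation loop are phosphorylated. A MAP kinase phosphatase removes both phosphates and so ends the signal, and several of these phosphatases are themselves transcribed in response to the kinases, which makes them feedback brakes. Dusp1 is a nuclear, early-response phosphatase of p38, JNK and ERK, whereas Dusp6 is a cytoplasmic phosphatase that prefers ERK. Dusp2 is a nuclear phosphatase found mainly in blood cells, Dusp8 and Dusp16 act mainly on JNK and p38, and Dusp9 acts mainly on ERK. Dusp11, Dusp12 and Dusp19 are atypical members that lack the MAP kinase-binding domain of the classical ones: Dusp11 acts on RNA, Dusp12 takes part in ribosome assembly, and Dusp19 has been tied to the JNK pathway. The family name thus covers 6 genes for classical MAP kinase phosphatases and 3 for atypical members.

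The promoters of the 4 classical members whose transcripts were higher after NmU in this series are shown because they carry different recognition letters for signal-regulated factors. Each is the 250 bases upstream of the RefSeq start on assembly GRCm38.p6, read in the direction of transcription, with Dusp1 at chr17:26508473-26508722 (minus strand), Dusp6 at chr10:99262981-99263230 (plus strand), Dusp2 at chr2:127335909-127336158 (plus strand) and Dusp16 at chr6:134792629-134792878 (minus strand). Capitals mark matches to any of the motifs searched.
Dusp1: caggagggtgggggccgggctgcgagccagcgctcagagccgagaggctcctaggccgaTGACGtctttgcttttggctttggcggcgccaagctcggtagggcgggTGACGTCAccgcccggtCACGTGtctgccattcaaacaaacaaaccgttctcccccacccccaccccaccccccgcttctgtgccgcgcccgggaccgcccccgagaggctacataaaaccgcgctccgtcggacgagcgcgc
Dusp6: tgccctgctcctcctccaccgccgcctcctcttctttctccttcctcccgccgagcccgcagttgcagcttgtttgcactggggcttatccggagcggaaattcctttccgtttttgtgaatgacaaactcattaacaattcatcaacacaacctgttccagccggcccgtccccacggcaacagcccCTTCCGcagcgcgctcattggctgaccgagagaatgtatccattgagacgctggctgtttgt
Dusp2: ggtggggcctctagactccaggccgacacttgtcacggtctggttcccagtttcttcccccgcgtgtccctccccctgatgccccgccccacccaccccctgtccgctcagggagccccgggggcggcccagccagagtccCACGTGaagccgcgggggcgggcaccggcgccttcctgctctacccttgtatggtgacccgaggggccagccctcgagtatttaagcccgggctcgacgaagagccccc
Dusp16: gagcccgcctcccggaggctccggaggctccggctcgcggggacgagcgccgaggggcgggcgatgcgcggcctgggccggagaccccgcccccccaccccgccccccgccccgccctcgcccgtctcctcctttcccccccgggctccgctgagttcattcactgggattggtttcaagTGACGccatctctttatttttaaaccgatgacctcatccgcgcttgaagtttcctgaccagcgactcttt

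The motifs were searched on both strands. They were the cAMP response element (CRE) TGACGTCA and its short form TGACG, which lies inside the full CRE, the AP-1 site TGANTCA, the E-box CACGTG, the ETS core CGGAAG, and the CArG box by name. The Dusp1 promoter held a full CRE 143 to 136 bases before the start, a further short form at 191 to 187 and an E-box at 126 to 121. The Dusp6 promoter held none of these but an ETS core, written on this strand as CTTCCG, at 62 to 57. The Dusp2 promoter held an E-box at 109 to 104, and that of Dusp16 the short CRE form at 70 to 66. Of the 7 Dusp promoters found in the RefSeq table, 2 held a full CRE (Dusp1, and Dusp8 with 2 copies), against 1.55% of all 32851 promoters. The short form was in 4 of the 7 (Dusp1, Dusp8, Dusp11 and Dusp16) and in 17.8% of all, the E-box in 2 and in 6.02%, and the ETS core in 1 and in 13.6%. The AP-1 letters were in 0 of the 7 and in 6.75% of all, and the CArG box in 0 and in 1.47%. The full CRE, its short form, the E-box and the ETS core all hold the letters CG, and the shares were not matched for base content. Bases G or C made up 68.4% of the Dusp1 promoter, 70.4% of Dusp2, 56.4% of Dusp6, 71.6% of Dusp8, 54% of Dusp11 and 68.4% of Dusp16. The median over all promoters was 52.4%. A match is a description of letters, and the arrays do not measure binding. The table held no entry for Dusp9 and Dusp19.

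Arrays were alike in overall signal, with medians of 34.4 to 43.3 on the deposited linear scale. Pairs of arrays of the same group correlated at 0.951 to 0.982 across tested probe sets on the log2 scale. The array farthest from its group was PBS at 3 h, replicate 4. Precision is limited by the number of arrays. Most defining T cell markers were well above the floor: Cd3d had a median signal of 1437.2, Cd3e 805.4 and Cd4 282.6 over the 31 arrays, while Thy1 was dim, with a median of 5.6, and lay at or below the floor of 5.8 on 20 arrays. The Th2 factor Gata3 had a median signal of 2204.2. Of the markers of other cells, Cd8a was at or below the floor on 26 arrays and the macrophage markers Lyz2 on 28 and Adgre1 on 23. Others were above the floor on all 31, among them Itgax (median 100.5), Cd14 (70.9), Cd68 (39.1) and Csf1r (30), and the B cell markers Cd79a (61.1) and Ms4a1 (41.7). The summed signal of 9 macrophage and dendritic cell markers lay between 243.9 and 423.9 over all arrays, with every NmU group overlapping its PBS group, and 1 of the 6 tested, Cd68, was higher after NmU at 6 h by 0.54 and at 12 h by 0.61 on the log2 scale (limma, adjusted p = 0.037 and 0.0457). Of all tested probe sets, 4.88% were called at 6 h and 1.26% at 12 h. The part of Cd68 in the results below was not tested.

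Of the 13 Dusp probe sets, 7 passed the filter on dim signal, which asked for a geometric mean signal above 20.2 in at least 1 group, and they stand for 7 genes: Dusp1, Dusp2, Dusp6, Dusp11, Dusp12, Dusp16 and Dusp19. The other 6 were dim, with signals from 0.5 to 24.1 on the 31 arrays, and were not tested. Among them, both probe sets of Dusp8 (3.4 to 23.7 and 2.8 to 17.4) and both of Dusp9 (0.5 to 12.9 and 2.9 to 23.8) left no tested probe set for those genes. The second Dusp6 probe set gave 0.6 to 13.6, and 15 of its 31 values lay at or below the floor, while the second Dusp16 probe set gave 5.1 to 24.1. The dim probe set closest to the filter belonged to Dusp9, with a highest geometric group mean of 17.3, just under it, and single arrays of the dim Dusp8, Dusp9 and Dusp16 probe sets reached 23.7, 23.8 and 24.1. The tested probe set closest to the filter belonged to Dusp11, with 170.8, far above it. Both genes with 2 unequal probe sets are described by the brighter one.

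**Figure D1:**
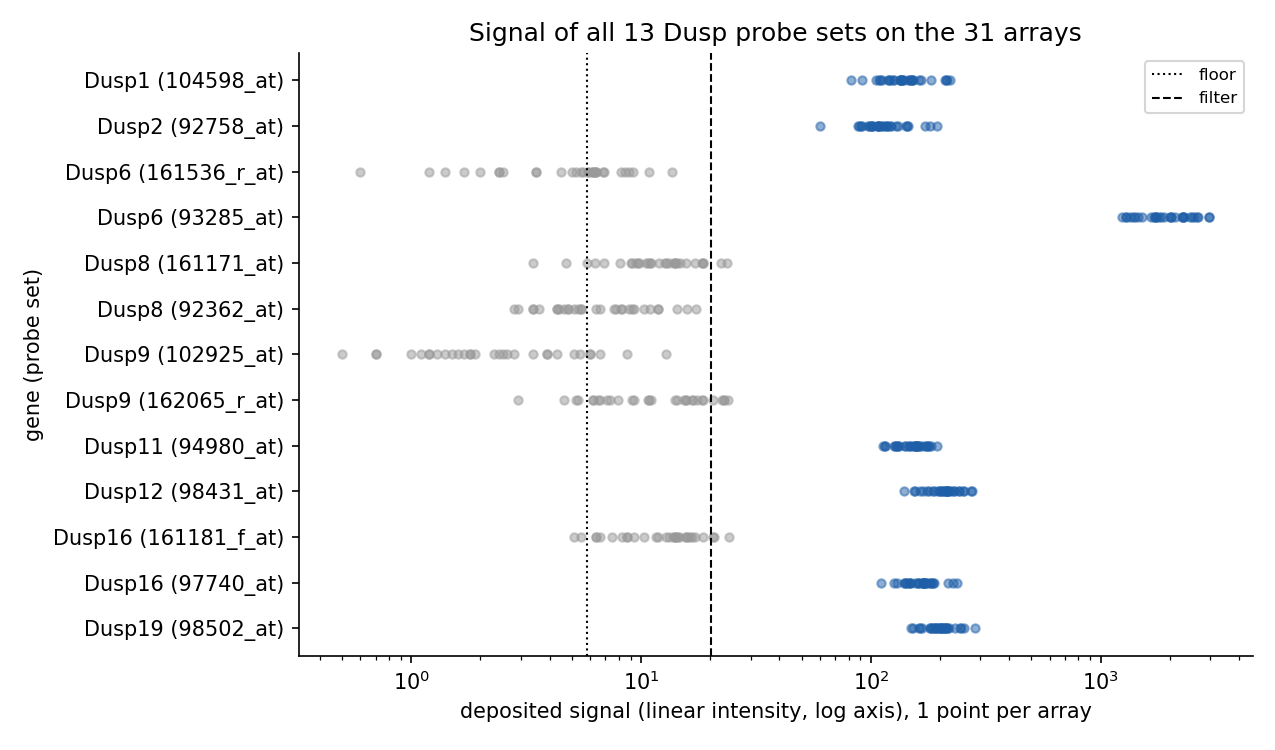
Deposited signal of the 13 Dusp probe sets, 1 row each, on a log axis of linear intensity, with 1 point for each of the 31 arrays. The dotted line is the floor of 5.8 and the dashed line the filter of 20.2; the 7 tested probe sets (blue) lie wholly to the right of both, and the 6 untested ones (grey) stay at or under 24.1.

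The members called after NmU were not the same at each time, which does not by itself show that a member's effect changed with time. Calls were made at a Benjamini-Hochberg adjusted p under 0.05 over all 7930 tested probe sets, in a limma model of all 31 arrays. At 0.8 h, 1 of the 7 tested members was called, Dusp1, which was higher, where 0.845% of all tested probe sets were called. At 3 h, 4 of 7 were called against 10.2% of all: Dusp2, Dusp6 and Dusp16 were higher and Dusp19 was lower. At 6 h only Dusp6 was called among the 7, and it was higher, against 4.88% of all, and at 12 h only Dusp19, also higher, against 1.26% of all. The median log2 difference of the 7 was 0.14 at 0.8 h, 0.25 at 3 h, 0.05 at 6 h and 0.02 at 12 h, beside -0.04, -0.03, 0.02 and -0.02 for all tested probe sets.

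Counting members whose arrays did not overlap between treatments gave 1 at 0.8 h, 4 at 3 h, 1 at 6 h and 3 at 12 h. The same held for 5.02%, 18.7%, 12% and 7.49% of all tested probe sets at these times. At 12 h the 3 were Dusp6 and Dusp19 above PBS, and Dusp1 below it. An F test over the 4 times called 5 of the 7, all but Dusp11 and Dusp12, against 11.6% of all tested probe sets. An F test of whether the NmU effect differed between times called 3 of the 7, Dusp1, Dusp6 and Dusp19, against 4.04% of all tested probe sets. No member was called in the F test of time in PBS alone, 0 of 7 in limma, where 3 of the 7 had an unadjusted p under 0.05 and 0.0126% of all probe sets were called.

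**Figure D2:**
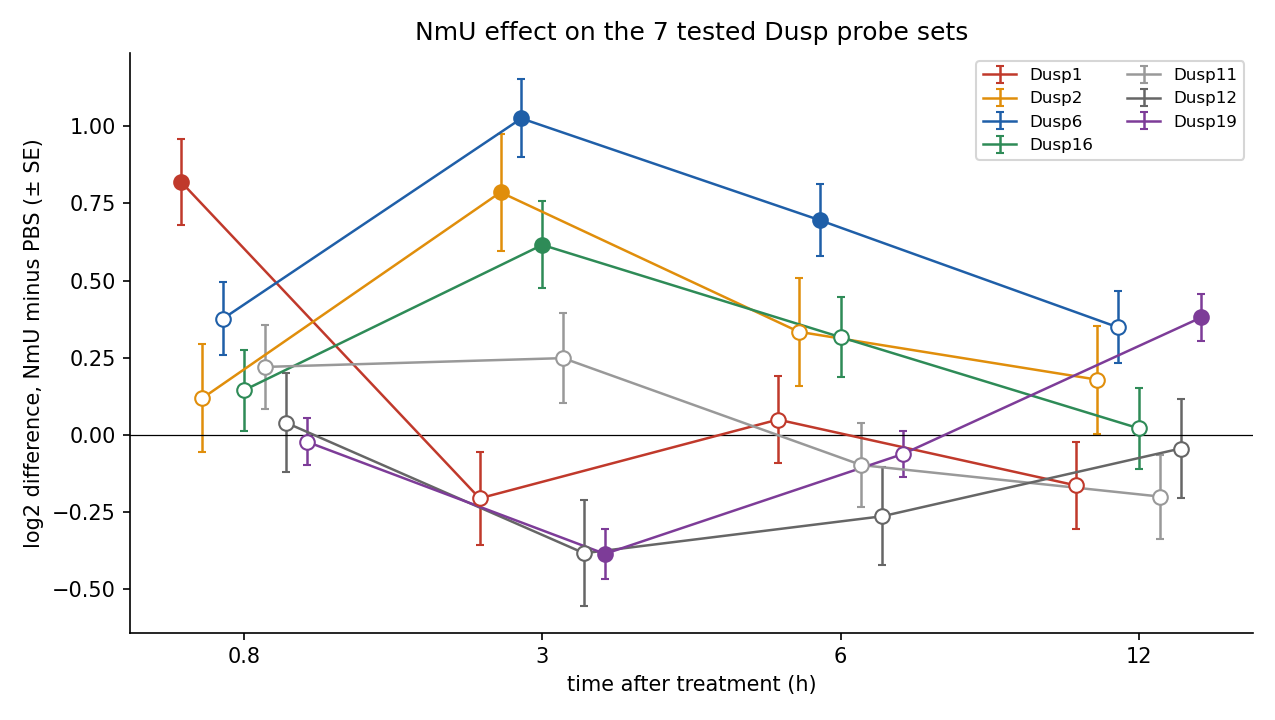
Log2 difference between NmU and PBS (vertical axis) with its standard error for the 7 tested Dusp probe sets at 0.8, 3, 6 and 12 h (horizontal axis, points spread sideways). Filled points passed an adjusted p of 0.05 in limma, open points did not. Dusp1 stands highest at 0.8 h with 0.82, Dusp6 at 3 h with 1.02 and at 6 h with 0.70, and Dusp19 goes from -0.38 at 3 h to 0.38 at 12 h.

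Dusp1, the early-response nuclear phosphatase, was higher after NmU at 0.8 h and at no later time. At 0.8 h the 4 PBS arrays read 108.9, 137.3, 134.8 and 109.4, and the 4 NmU arrays 214.4, 211.3, 211.9 and 222. All 4 NmU values lay above the highest PBS value, and they differed little among themselves. The difference was 0.82 ± 0.14 (log2, SE), or 1.76-fold, with an adjusted p of 0.000819 in limma.

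By 3 h the Dusp1 signal of treated cells was no longer above that of vehicle. The PBS arrays at 3 h read 140.1, 134.9, 126.3 and 82.1 and the NmU arrays 91.1, 105.6 and 112.4. The NmU arrays lay below 3 of the 4 PBS arrays and above replicate 4, and the difference of -0.21 ± 0.15 was not called (limma, adjusted p = 0.447). Without PBS replicate 4, the array farthest from its group, no arrays overlapped and the difference was -0.38, still not called (adjusted p = 0.0582). At 6 h, PBS gave 134, 119.8, 137.1 and 146.6 and NmU 133.9, 120.9, 125.4 and 182.5. The groups overlapped, with replicate 4 of NmU alone above all PBS values, and the difference of 0.05 ± 0.14 (adjusted p = 0.898) changed its sign to -0.08 without that array. At 12 h, PBS gave 165.2, 162.8, 151.7 and 152 and NmU 151.2, 149.1, 146.6 and 119.3. Every NmU array lay below every PBS array by a small margin, but the difference of -0.16 ± 0.14 was not called in limma (adjusted p = 0.714).

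Ordered by group mean, Dusp1 stood highest in NmU at 0.8 h (214.9 ± 4.92, SD, n = 4), and no array of that group overlapped the next group, PBS at 12 h (157.9 ± 7.08, n = 4). PBS at 12 h did not overlap the group after it, NmU at 12 h (141.6 ± 15, n = 4). The remaining groups followed in the order NmU 6 h, PBS 6 h, PBS 0.8 h, PBS 3 h and NmU 3 h (103 ± 10.9, n = 3), and from NmU at 12 h down each group overlapped its neighbour.

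The change of the Dusp1 response with time was itself tested. The F test of a difference between the 4 times gave an adjusted p of 0.00566 in limma. The effect at 3 h was lower than that at 0.8 h by 1.02 ± 0.21 on the log2 scale (adjusted p = 0.0043), and 2 of the 7 members were called in this comparison against 3.29% of all probe sets. The effect at 12 h was lower than that at 0.8 h by 0.98 ± 0.20 (adjusted p = 0.00875), the only call among the 7, against 0.832% of all. The effect at 6 h minus that at 0.8 h was -0.77 ± 0.20 and missed the threshold (adjusted p = 0.0609), with 0 of the 7 members called in limma, 1 of them at an unadjusted p under 0.05, against 0.908% of all called. This miss depended on the setting. The difference passed without replicate 4 of NmU at 6 h (-0.90, adjusted p = 0.00834), without replicate 4 of PBS at 3 h (adjusted p = 0.0127) and with arrays scaled to 1 median (-0.93, adjusted p = 0.00816). It also passed with quantile normalisation (adjusted p = 0.0311), a floor at the 40th percentile (0.0481) and no floor (0.0436). The comparisons of the effects at 3, 6 and 12 h with that at 0.8 h all share the arrays of 0.8 h.

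Within NmU-treated cells, Dusp1 fell from 0.8 h to 3 h by 1.07 ± 0.15 on the log2 scale (limma, adjusted p = 2.77e-05). It was 1 of 2 members called in that comparison, against 8.51% of all tested probe sets, and the other was Dusp2, which was higher at 3 h. The level at 6 h was lower than at 0.8 h by 0.63 ± 0.14 (adjusted p = 0.00864, 1 of 7 called against 3.46% of all), and that at 12 h by 0.61 ± 0.14 (adjusted p = 0.0118, 2 of 7 against 2.96%).

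Dusp6, the cytoplasmic phosphatase of ERK, was higher after NmU at 3 and 6 h. At 0.8 h the PBS arrays read 1406, 2107.2, 1828.7 and 1796.5 and the NmU arrays 2276.9, 2616.3, 2032.8 and 2284.4. The groups overlapped through a single array on each side, and the difference of 0.38 ± 0.12 was not called (limma, adjusted p = 0.226). At 3 h, PBS gave 1389.2, 1285.2, 1347.5 and 1243.3 and NmU 2448.8, 2648.2 and 2953.1. The lowest treated array was far above the highest vehicle array, and the difference of 1.02 ± 0.13, or 2.03-fold, was called with an adjusted p of 2.65e-06.

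At 6 h, PBS gave 1653.1, 1703.7, 1294.8 and 1723.7 for Dusp6 and NmU 2967.6, 2505.8, 2560.5 and 2269.9. The groups again did not overlap, and the difference was 0.70 ± 0.12, or 1.62-fold (limma, adjusted p = 0.000419). Averaging in the dim second probe set gave 0.42, which was not called (adjusted p = 0.0648). That probe set lay at or below the floor on 15 of 31 arrays. The average therefore shrinks a difference of the brighter probe set and cannot test its call. At 12 h, PBS gave 1451.9, 1738.2, 1749.6 and 1516 and NmU 2003.2, 2306.8, 1888.7 and 2015.5. All 4 NmU arrays were above all 4 PBS arrays, yet the difference of 0.35 ± 0.12 was not called over all probe sets (adjusted p = 0.191).

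By group mean the 4 NmU groups came first, in the order 3 h (2683 ± 254, SD, n = 3), 6 h (2576 ± 290, n = 4), 0.8 h (2303 ± 240, n = 4) and 12 h (2054 ± 178, n = 4). The 4 PBS groups followed, from 0.8 h (1785 ± 288, n = 4) through 12 h and 6 h to 3 h (1316 ± 64.8, n = 4). Each group overlapped the next one in this order. The Dusp6 level in PBS at 3 h, the lowest, was 0.43 below PBS at 0.8 h on the log2 scale, which was not called (limma, adjusted p = 0.315, unadjusted p = 0.00122). Within NmU-treated cells, Dusp6 at 3 h was above 0.8 h by 0.22 ± 0.13, and at 6 h by 0.16 ± 0.12 (adjusted p = 0.33 and 0.59). At 12 h it was below 3 h by 0.39 ± 0.13 (adjusted p = 0.0548). None of these was called. The larger Dusp6 effect at 3 h than at 0.8 h thus joins an uncalled rise in treated cells to an uncalled fall in vehicle.

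The Dusp6 effect differed between the 4 times with an adjusted p of 0.0443 in the limma F test. This is close to the threshold: leaving out single arrays gave 0.014 to 0.142, with the call kept in 9 of 31 refits and lost in 22, and scaling the arrays to a common median gave 0.0834. The effect at 3 h exceeded that at 0.8 h by 0.65 ± 0.17 (adjusted p = 0.0325), a call lost in 9 of 31 refits, with arrays scaled to 1 median (adjusted p = 0.0683) and with quantile normalisation (adjusted p = 0.0628). The effect at 12 h was lower than that at 3 h by 0.68 ± 0.17 (adjusted p = 0.0273, lost in 6 of 31 refits), and 2 of the 7 members were called here against 2.85% of all. The arrays whose loss ended the first of these calls were replicates 2, 3 and 4 of PBS and 1, 3 and 4 of NmU at 0.8 h, replicate 2 of PBS and replicates 2 and 3 of NmU at 3 h. For the second they were replicates 2 and 3 of NmU at 3 h, replicates 2 and 3 of PBS at 12 h and replicates 1 and 3 of NmU at 12 h. The effect at 6 h did not differ past the threshold from that at 3 h (-0.33, 95% interval -0.68 to 0.03, adjusted p = 0.514) or from that at 12 h, where the later minus the earlier effect was -0.35 (adjusted p = 0.603).

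**Figure D3:**
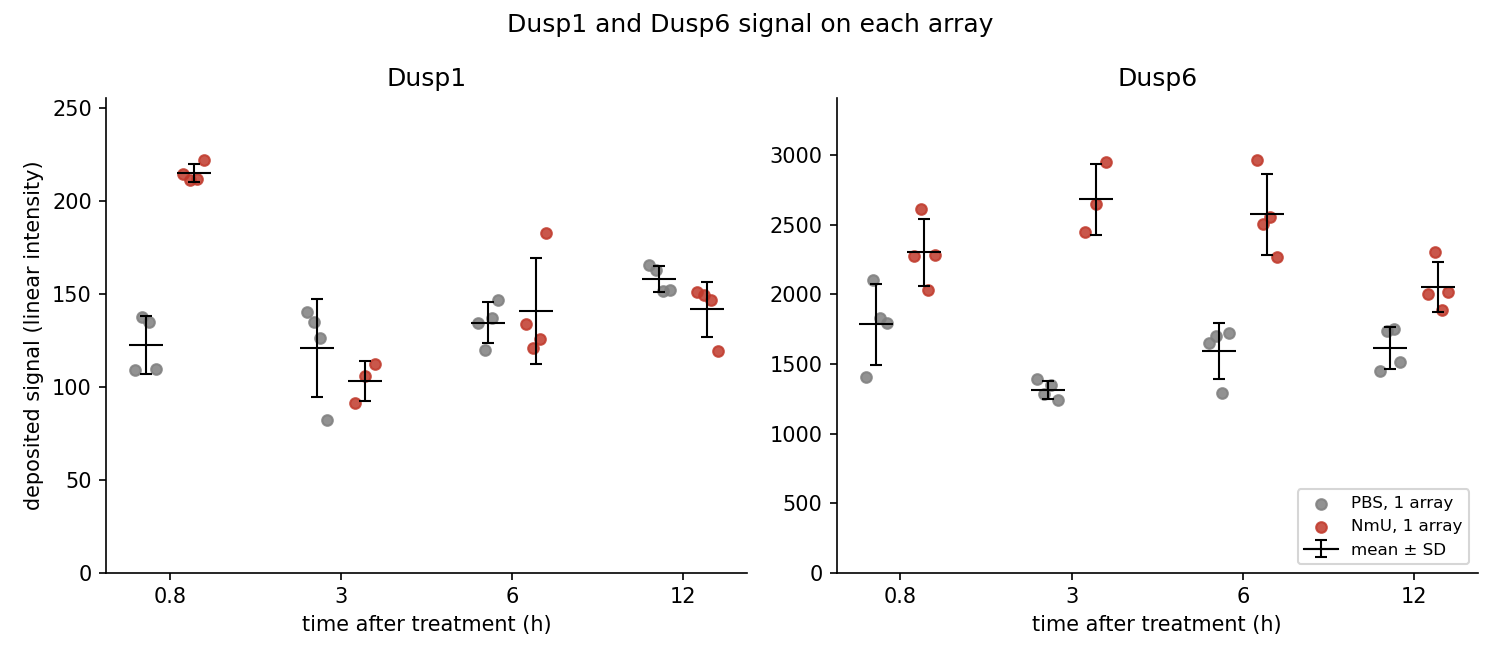
Deposited signal (linear intensity, axes from 0) of Dusp1 (left) and Dusp6 (right) on each array by time in hours, PBS in grey and NmU in red, with the mean and SD of each group. Treated Dusp1 stands apart at 0.8 h (211.3 to 222 against 108.9 to 137.3), and treated Dusp6 stands above PBS at 3 h (2448.8 to 2953.1 against 1243.3 to 1389.2), 6 h and 12 h.

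The NmU responses of Dusp1 and Dusp6 were compared within arrays, as log2 Dusp6 minus log2 Dusp1. Only the change of this value is of interest, because levels of different probe sets cannot be set against each other. At 0.8 h it was 3.42 ± 0.16 (SD, n = 4) after NmU and 3.86 ± 0.16 (n = 4) in PBS, so that Dusp6 changed by 0.44 less than Dusp1. At 3 h the values were 4.70 ± 0.05 (n = 3) and 3.47 ± 0.31 (n = 4), a change of Dusp6 that was 1.23 larger. At 6 h they were 4.21 ± 0.38 and 3.56 ± 0.24 (n = 4 each), 0.65 larger, and at 12 h 3.86 ± 0.19 and 3.35 ± 0.17 (n = 4 each), 0.51 larger. The sign therefore turned between 0.8 h and 3 h.

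The treated and vehicle arrays did not overlap in this value at 0.8, 3 or 12 h, and at 6 h they overlapped through replicate 4 of NmU, at 3.64, the array with the high Dusp1 signal. The exact two-sided permutation test over arrays gave p = 0.0286 at 0.8 h and at 12 h, the smallest that 4 against 4 arrays allow. At 3 h it gave 0.0571, the smallest for 3 against 4 arrays, and at 6 h also 0.0571. After Benjamini-Hochberg adjustment over the 4 times, each of these exact tests stood at 0.0571, past the threshold at no time. Over all 31 arrays the 2 log2 signals had a Pearson r of 0.16, a description over arrays that share 8 groups.

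**Figure D4:**
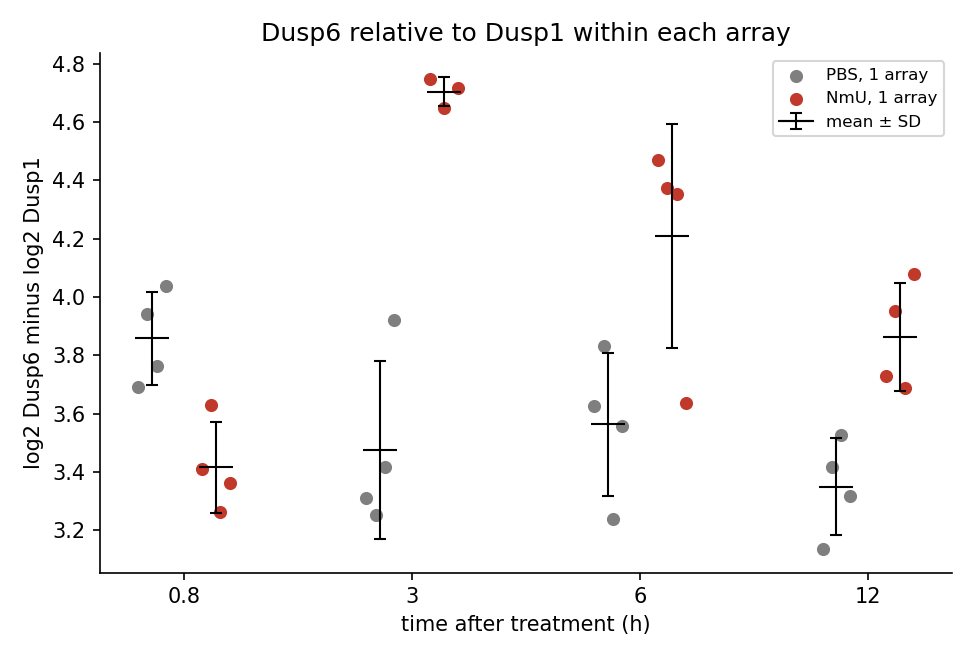
Log2 Dusp6 minus log2 Dusp1 within each array (vertical axis, not from 0) by time in hours, PBS in grey and NmU in red, with the mean and SD. NmU arrays lie below PBS at 0.8 h (mean 3.42 against 3.86) and above it at 3 h (4.70 against 3.47) and 12 h (3.86 against 3.35), with 1 NmU array among the PBS values at 6 h.

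Dusp2, the nuclear phosphatase of blood cells, was higher at 3 h alone. Its PBS arrays at 3 h read 99.8, 91.1, 116 and 117.8 and its NmU arrays 181.4, 193.4 and 171.8. The 3 treated arrays lay well above all vehicle arrays and above every other array of the series, by a difference of 0.79 ± 0.19, or 1.72-fold (limma, adjusted p = 0.00667). At 0.8 h the PBS arrays spanned 90.5 to 121.5 and the NmU arrays 98.4 to 142.8, and at 6 h 89.2 to 107.5 and 87.9 to 145.4. Both pairs overlapped, with differences of 0.12 and 0.33 that were not called (adjusted p = 0.972 and 0.327). At 12 h, PBS spanned 60.3 to 122.5 and NmU 99.9 to 117.8, with a difference of 0.18 (adjusted p = 0.759). In NmU-treated cells Dusp2 was higher at 3 h than at 0.8 h by 0.64 ± 0.19 (adjusted p = 0.0326) and was lower at 12 h than at 3 h by 0.74 ± 0.19 (adjusted p = 0.0124, 2 of 7 members called against 8.97% of all). Whether the NmU effect on Dusp2 differed between times did not pass (F test, adjusted p = 0.36).

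Dusp16, the phosphatase with a preference for JNK and p38, was likewise called at 3 h alone. At that time PBS gave 148.1, 173.3, 139.9 and 110.8 and NmU 187.6, 228.3 and 236.4. The groups did not overlap, and the lowest treated array was closest to the vehicle range. The difference was 0.62 ± 0.14, or 1.53-fold (limma, adjusted p = 0.00445). It kept its size but not its call when only the 2 groups at 3 h entered the model (adjusted p = 0.133). Averaging in the dim second probe set gave 0.30 (adjusted p = 0.438). That probe set lay under the filter and differed by -0.02 at 3 h, so the average shrinks the difference and cannot test the call. At 0.8 h PBS spanned 140.5 to 162.7 and NmU 155.1 to 181.8, at 6 h 125.6 to 181.7 and 168.7 to 217.5, and at 12 h 130.4 to 183.8 and 143 to 172. All 3 pairs overlapped, with uncalled differences of 0.14, 0.32 and 0.02 (adjusted p of 0.185 or more). The Dusp16 effect did not differ past the threshold between times (F test, adjusted p = 0.244).

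Among the atypical members, Dusp19 changed in opposite directions at 3 h and 12 h. At 3 h PBS gave 205, 213.6, 201.8 and 194.7 and NmU 152, 166.9 and 149.6, so all treated arrays were lower. At 12 h PBS gave 199.6, 189.4, 209.3 and 190 and NmU 253.8, 243.5, 284.6 and 245.7, and all treated arrays were higher. The differences were -0.38 ± 0.08 (0.77-fold) and 0.38 ± 0.08 (1.30-fold), with adjusted p of 0.00217 and 0.00533 in limma. Neither call held when only the 2 groups of that time entered the model (adjusted p = 0.138 and 0.163).

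At 0.8 h Dusp19 spanned 164.5 to 199.9 in PBS and 161.7 to 190.8 after NmU, and at 6 h 201.1 to 231.4 and 195.9 to 214.2. These groups overlapped, and the differences of -0.02 and -0.06 were not called (adjusted p = 0.993 and 0.741). The effect differed between times (limma F test, adjusted p = 0.000711), and the effect at 12 h exceeded that at 3 h by 0.77 ± 0.11 (adjusted p = 0.000178), a call kept in all 31 refits without 1 array. In treated cells the level was higher at 6 h than at 3 h by 0.40 ± 0.08 (adjusted p = 0.00419, 1 of 7 called against 3.72% of all). It was higher at 12 h than at 6 h by 0.31 ± 0.08 (adjusted p = 0.0452, 1 of 7 against 0.706%).

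Dusp11 and Dusp12, which act outside MAP kinase signalling, were called at no time. Dusp12 at 3 h gave 252.3, 196.2, 216.4 and 275.5 in PBS and 216.1, 139.7 and 189.3 after NmU. The ranges overlapped, and the difference was -0.38 ± 0.17 (limma, adjusted p = 0.166, 95% interval -0.74 to -0.03). Its differences at 0.8, 6 and 12 h were 0.04, -0.26 and -0.04. Dusp11 at 3 h gave 159.6, 157.2, 131.7 and 115.6 in PBS and 153.7, 174.7 and 170.7 after NmU, which overlap, with a difference of 0.25 ± 0.15 (adjusted p = 0.319). At 0.8, 6 and 12 h its differences were 0.22, -0.10 and -0.20, with adjusted p of 0.623 to 0.884.

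**Figure D5:**
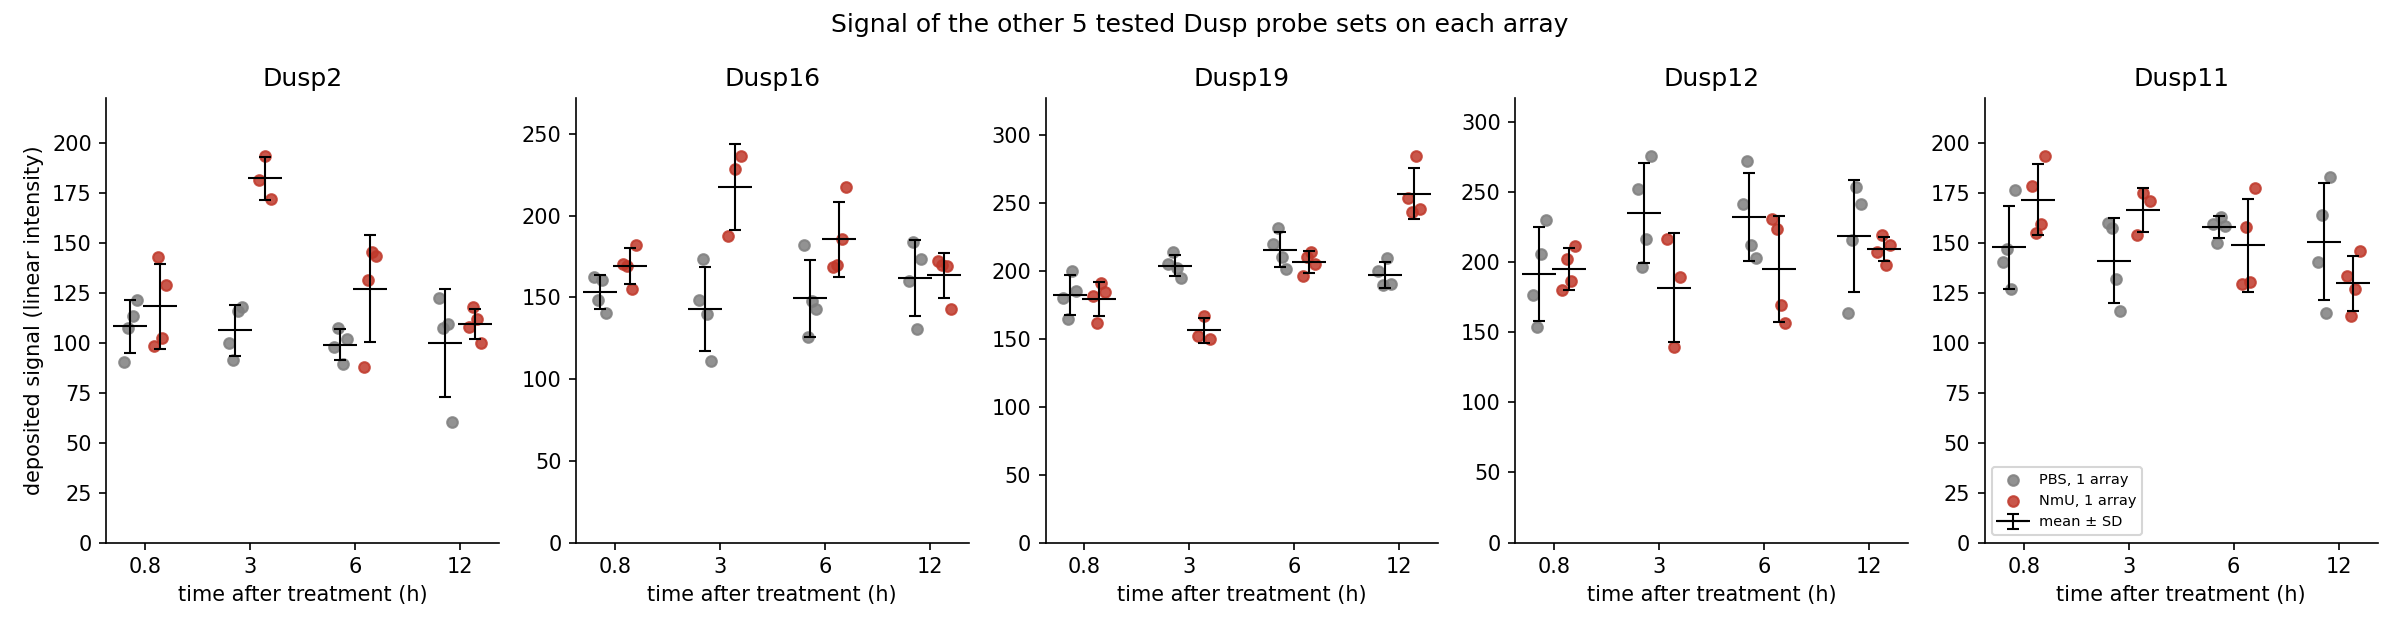
Deposited signal (linear intensity, axes from 0) of Dusp2, Dusp16, Dusp19, Dusp12 and Dusp11 on each array by time in hours, PBS in grey and NmU in red, with the mean and SD of each group. Treated arrays stand apart at 3 h for Dusp2 (171.8 to 193.4) and Dusp16 (187.6 to 236.4), and for Dusp19 at 3 h (149.6 to 166.9, below PBS) and 12 h (243.5 to 284.6, above PBS), while Dusp12 and Dusp11 overlap with PBS at every time.

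Other genes of the MAP kinase pathway are given from 4 lists, chosen with earlier results of these data known. Up to 4 genes of each list were named by the lowest p of the F test on these same arrays. Their calls are therefore partly built in. Of 26 tested genes for MAP kinases and the kinases and GTPases above them, 0 were called at 0.8 h and 0 at 12 h in limma, with 2 at each time under an unadjusted p of 0.05. At 3 h, 4 were higher and 4 lower, where 10.2% of all tested probe sets were called, and at 6 h, 2 were higher, a share near the 4.88% of all. Mapk6, an atypical MAP kinase, was higher at 3 h by 0.87 ± 0.09 (adjusted p = 1.57e-07) and at 6 h by 0.51 ± 0.08 (adjusted p = 0.000358). At 3 h, Map2k5, the kinase above ERK5, fell by 0.79, and the upstream kinases Map3k4 and Map3k3 fell by 1.23 and 0.52 on the log2 scale (adjusted p = 0.000152, 0.000301 and 0.00537). The remaining calls at 3 h were named outside that rule, also after their values were seen. Mapk8 (0.55), Map2k3 (0.42) and Map3k11 (1.24) were higher, and Mapk9 (-0.56) was lower. Mapk14, which encodes p38 alpha, was higher at 6 h by 0.34. The median of the list at 3 h was -0.05, against -0.03 for all tested probe sets.

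Of 15 tested genes for other brakes on this signalling, 1 was higher at 0.8 h, 4 were higher and 1 lower at 3 h, 2 were higher at 6 h and 1 at 12 h. Of all tested probe sets, 0.845%, 10.2%, 4.88% and 1.26% were called at these times. The list medians were -0.01, 0.26, 0.25 and 0.03, against -0.04, -0.03, 0.02 and -0.02 for all tested probe sets. Spred2, an inhibitor of the step from Ras to Raf, was higher at 3 h by 0.97 ± 0.15 and at 6 h by 1.12 ± 0.14 (limma, adjusted p = 6.86e-05 and 8.74e-06). Ptpn22, a phosphatase that dampens T cell receptor signalling, was higher at 0.8 h (0.57) and 3 h (0.62), and Ptpn6, which encodes the phosphatase SHP-1, at 3 h (0.56), 6 h (0.66) and 12 h (0.53). Rasa3, a GTPase-activating protein that switches Ras off, fell by 1.14 ± 0.14 at 3 h (adjusted p = 2.29e-06). The adaptor gene Dok2, named outside the F test rule after its value was seen, was higher at 3 h by 0.58.

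Of 10 tested genes for kinases and factors downstream of MAP kinases, 0 were called at 0.8 h and 0 at 12 h in limma, with 2 and 1 under an unadjusted p of 0.05. At 3 h 1 was called and at 6 h 2, against 10.2% and 4.88% of all. Mknk2, a kinase of the translation factor eIF4E, was lower at 3 h by 0.68 on the log2 scale and at 6 h by 0.55 (adjusted p = 0.00868 and 0.0397), and Elk3, an ETS factor, was higher at 6 h by 0.61 (adjusted p = 0.0404). Ets2 and Mapkapk2 were called at no time, with 0.52 at 0.8 h and 0.43 at 3 h as their largest differences (adjusted p = 0.0564 and 0.0765).

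Of 16 tested early genes that ERK signalling drives, 11 were higher at 0.8 h, 8 at 3 h, 4 at 6 h and 1 at 12 h, and none was lower at any of these times. The list was chosen with earlier results of these data known, so its share of calls is partly built in. The arrays do not measure ERK activity. Calls over all tested probe sets stood at 0.845%, 10.2%, 4.88% and 1.26%. The list medians were 1.18, 0.76, 0.44 and -0.09, against -0.04, -0.03, 0.02 and -0.02 for all tested probe sets. Egr2, a zinc finger factor, was higher by 4.54 at 0.8 h, 2.15 at 3 h and 1.63 at 6 h, and Fosl1, an AP-1 subunit, by 1.56, 1.58 and 1.41 (limma, adjusted p of 0.00464 or less). Ier2, an early nuclear regulator, was higher by 2.29, 0.82 and 0.76 at the same times (adjusted p = 8.15e-09, 0.0093 and 0.0188). Zfp36, an mRNA decay factor, was called at 0.8 h alone, with 1.75 against 0.49 at 3 h (adjusted p = 2.7e-08 and 0.0648), as Dusp1 was. The fourth gene called at 6 h, Phlda1 (0.81), and the single one at 12 h, Myc (0.84), were named outside the F test rule after their values were seen.

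The genes whose log2 signal followed Dusp1 most closely over the 31 arrays, among 5904 genes compared, were Irf1 (Pearson r = 0.88), Nfkbiz (0.79), Zfp36 (0.79), Atn1 (0.78) and Btg2 (0.76). Their differences at 0.8 h were 0.70, 1.27, 1.75, 0.24 and 1.10, and limma called each of these but Atn1 (adjusted p = 0.918). None of the 5 was called at 3, 6 or 12 h. Irf1 is an interferon-response factor, Nfkbiz a nuclear regulator of NF-kB, and Btg2 an antiproliferative early gene. Those closest to Dusp6 were Il13 (r = 0.90), Lilr4b (0.87), Il4 (0.87), Mapk6 (0.85) and Btg1 (0.85). All 5 were higher at 3 h, by 1.75, 1.66, 2.70, 0.87 and 0.99, and at 6 h, by 1.12, 1.25, 1.89, 0.51 and 0.92. Unlike Dusp6, Il13, Lilr4b and Il4 were also called at 0.8 h, higher by 1.08, 0.73 and 1.82 (limma, adjusted p of 0.00413 or less). At 12 h Il13, Lilr4b, Il4 and Btg1 were called, higher by 0.85, 1.24, 1.21 and 0.60 (adjusted p of 0.00244 or less). Mapk6, like Dusp6, was called at neither of these times. Il4 and Il13 are the signature cytokines of Th2 cells, and Lilr4b is an inhibitory receptor. These correlations describe arrays that share 8 groups and carry no test. The genes were picked on the same arrays that gave their calls, so calls shared with Dusp1 or Dusp6 are partly built in. Of all tested probe sets, 0.845% were called at 0.8 h, 10.2% at 3 h, 4.88% at 6 h and 1.26% at 12 h.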

How the data were processed

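Neuromedin U and vehicle arrays were grouped by the sample titles. The authors deposited 1-colour probe set intensity values on a linear scale, which were used as deposited. How probe sets were summarised and scaled is not given in the sources used here. The mean of each array without 2% at each end was 150.095 to 150.113, so each change is relative to the rest of the array.

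Of 12488 probe sets, 66 controls were left out. Intensities under 5.8, the 20th percentile, were set to this floor before log2. A probe set was tested if its mean exceeded 20.2, the 40th percentile, in at least 1 of the 8 groups, which kept 7930. The floor understates changes of dim transcripts. One model of all arrays (23 residual degrees of freedom) used lmFit and eBayes of limma 3.58.1, run under R 4.3.3, and was tested on simulated data. P-values are two-sided, adjusted by Benjamini-Hochberg over the 7930, and errors of differences are standard errors. Exact permutation tests were run in R and checked with SciPy 1.17.1. Entrez numbers matched all 13 Dusp probe sets to RefSeq, with 0 symbols changed.

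All Dusp probe sets are named. From each pathway list, up to 4 genes with the lowest p of the F test over the 4 times are named, and for Dusp1 and Dusp6 the 5 genes of highest correlation. The members and lists were chosen with earlier results of these data known. Alternatives changed the scaling, floor, filter, arrays, probe sets and replicate block. Samples of the same replicate number were not treated as pairs in the main model. Correlations of their deviations ran from -0.22 to 0.20, and those at 0.8 h from 0.057 to 0.20. These weak values do not settle whether samples were paired.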

Additional observations from a re-analysis of the deposited data

Results flagged for a closer look

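Dixon's ratio of gap to range, tested in the 49 groups of 4 arrays formed by 7 probe sets and 7 groups, passed its 95% limit in 3, and chance alone marks about 1 in 20. Dusp1 read 119.3 in replicate 4 of NmU at 12 h, below the other three (146.6 to 151.2), with a ratio of 0.856. The same array gave the lowest Dusp16 signal of its group, 143, against 169.1 to 172 on the others, with a ratio of 0.90. Dusp6 read 1294.8 in replicate 3 of PBS at 6 h, below the others (1653.1 to 1723.7), with a ratio of 0.835.

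The effect of NmU differed between the 4 times for Dusp1 (limma F test, adjusted p = 0.00566), Dusp6 (0.0443) and Dusp19 (0.000711). Dusp19 was lower in all 3 treated arrays at 3 h and higher in all 4 at 12 h, so that its response changed direction, while Dusp1 led at 0.8 h and Dusp6 at 3 h.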

How the results depend on the processing

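The number of calls at each time was the same under the other scalings, the lower floor, no floor, no filter and the replicate block, and without any single array. A floor at the 40th percentile gave 5 at 3 h, since it let in a dim Dusp8 probe set with a difference of 0.12 (limma, adjusted p = 0.0305). With only the 2 groups of a time in the limma fit, the calls at 3 h went from 4 to 2 and those at 12 h from 1 to 0, with 2 of the 7 at an unadjusted p under 0.05 at 12 h. After scaling arrays to one median, the difference between times for Dusp6 had an adjusted p of 0.0834, and uncalled differences changed sign for Dusp1 at 6 h (-0.034), Dusp19 at 0.8 h (0.061) and Dusp12 at 12 h (0.0076). The mean over both probe sets gave 0.42 for Dusp6 at 6 h and -0.55 for Dusp16 at 12 h. Each mean gives equal weight to a dim probe set under the filter. For Dusp16 at 12 h the dim one differed by -1.13 in the fit without a filter (limma, adjusted p = 0.268), and the brighter one by 0.02. Quantile normalisation took the Dusp6 change minus the Dusp1 change past the threshold (exact permutation test, adjusted p = 0.0381) at 0.8 h (-0.45), 6 h (0.73) and 12 h (0.46). With the replicate number as a block, the difference between times for Dusp6 had an adjusted p of 0.107, its calls of 3 h against 0.8 h and 12 h against 3 h were lost (0.0652 and 0.0618), and the Dusp1 effect at 6 h differed from that at 0.8 h (0.0297). The causes were not tested.

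Leaving out each array in turn gave adjusted p of 0.014 to 0.142 for the Dusp6 difference between times. It moved uncalled differences through 0 for Dusp12 at 0.8 h (-0.060 to 0.13) and 12 h (-0.18 to 0.034), Dusp19 at 0.8 h (-0.070 to 0.028), Dusp1 at 6 h (-0.082 to 0.12), Dusp16 at 12 h (-0.079 to 0.086) and Dusp2 at 12 h (-0.047 to 0.29). Differences of the effect between pairs of times were put through these alternatives after the data were seen. Low signal over background leaves Dusp8 and Dusp9 without a test.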
